A study of Mus musculus with 8 samples.

Results

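The regions described are sites where the chromatin remodeler Chd8 was detected inside genes without a Chd7 peak in the deposited lists. They were selected on the measured peak lists and are the peaks of the Chd8 library that touched no peak of either mock and no peak of either Chd7 library, lay more than 1 kb from every boundary of a RefSeq protein-coding gene, and had their midpoint inside such a gene. Of 18415 Chd8 peaks, 4131 met this rule (22.4%, 95% interval 21.8 to 23.0). They made up 69.7% (68.6 to 70.9) of the 5923 mock-free Chd8 peaks inside gene bodies. The other gene-body peaks comprised 1466 that touched a peak of 1 Chd7 library and 326 that touched both.

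Untreated wild-type mice of postnatal day 7 gave the cells, which carried O4 and were isolated magnetically from cortex and corpus callosum. O4 is a surface antigen of late oligodendrocyte precursor cells (OPCs) and young oligodendrocytes, and the labels call the cells OPCs. The 8 libraries were 2 chromatin immunoprecipitations (ChIPs) with an anti-Chd7 antibody from Cell Signaling, 1 with an anti-Chd8 antibody from Bethyl, 2 mocks with rabbit IgG and 3 inputs without antibody. A single mock serves both the second Chd7 library and Chd8, and input 3 is the control named for Chd8. The extraction notes name the O4 antibody for the isolation of the complexes, which differs from the antibody given for each sample and was not resolved. The number inside the Chd8 track name would assign input 2 to Chd8, so both inputs are given. Cells without Chd8 were not analysed here, and the sources used here do not say how many animals were pooled.

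There was 1 Chd8 library, so no value below has a replicate check and no test between conditions was possible. Shares are given with their 95% exact (Clopper-Pearson) interval, taken over peaks or over genes and covering counting error alone. Without read counts the sequencing depth is unknown. Peaks absent from the Chd7 lists are peaks not listed there. The Chd7 lists held 5282 and 6292 peaks, and leaving out replicate 1 or replicate 2 from the rule gave 5169 or 4559 regions. Peak names are numbered up to 6319 and 69048 in these lists, and up to 21436 in the Chd8 list of 18415 peaks. The second Chd7 list thus lacks most of its numbers. A site absent from it may have been called and left out, which was not tested.

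Chd8 is an ATP-dependent remodeler of the CHD family, which uses its ATPase motor to move nucleosomes, and heterozygous loss-of-function variants of the human gene are a known cause of autism. Chd7 is its close relative, and haploinsufficiency of the human gene causes CHARGE syndrome. Both bind promoters and enhancers. Many enhancers of the oligodendrocyte lineage lie in introns, and many genes have alternative promoters downstream of their first one, so a site inside a gene body may be either kind of element. The annotation used gives gene boundaries and starts but no exons, and exonic and intronic sites were therefore not separated.

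Some of the regions lay on an annotated RefSeq start inside the boundaries of the host gene. Whether such a start is the main or an alternative promoter of its gene was not tested. Windows of such starts are shown because they include the 5 regions of highest fold that covered a start and touched no input peak (Mnat1, Psmc2, Mrpl48, Psmf1 and Ddx56) and 3 genes of neural and oligodendrocyte lists (Myt1l, Frmd4a and Pcdh15). Each window runs from 250 bases before to 50 bases after the start and is RefSeq sequence of GRCm38.p6, 5′ to 3′ along the gene. Capitals mark matches, on either strand, to the GC box GGGCGG, the ETS motif CCGGAAG or the CCAAT box, and no window shown matched the NRF1 motif. The Mnat1 window is chr12:73123467-73123766 on the plus strand, the Psmc2 window chr5:21786497-21786796 on the plus strand, the Mrpl48 window chr7:100583081-100583380 on the minus strand, the Psmf1 window chr2:151741261-151741560 on the minus strand and the Ddx56 window chr11:6267680-6267979 on the minus strand. The Myt1l window is chr12:29534655-29534954, the Frmd4a window chr2:4559504-4559803 and the Pcdh15 window chr10:73821617-73821916, all on the plus strand.
Mnat1: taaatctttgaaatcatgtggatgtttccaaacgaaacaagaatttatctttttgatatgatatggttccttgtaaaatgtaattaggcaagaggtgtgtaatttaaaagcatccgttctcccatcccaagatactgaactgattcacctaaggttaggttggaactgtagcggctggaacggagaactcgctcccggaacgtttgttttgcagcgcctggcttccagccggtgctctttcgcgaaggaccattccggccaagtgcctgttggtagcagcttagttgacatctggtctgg
Psmc2: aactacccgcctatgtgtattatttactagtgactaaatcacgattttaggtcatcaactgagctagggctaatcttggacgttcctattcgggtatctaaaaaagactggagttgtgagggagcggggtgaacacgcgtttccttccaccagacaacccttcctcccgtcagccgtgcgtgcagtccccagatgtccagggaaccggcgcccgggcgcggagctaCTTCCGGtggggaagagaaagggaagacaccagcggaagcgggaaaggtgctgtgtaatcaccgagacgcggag
Mrpl48: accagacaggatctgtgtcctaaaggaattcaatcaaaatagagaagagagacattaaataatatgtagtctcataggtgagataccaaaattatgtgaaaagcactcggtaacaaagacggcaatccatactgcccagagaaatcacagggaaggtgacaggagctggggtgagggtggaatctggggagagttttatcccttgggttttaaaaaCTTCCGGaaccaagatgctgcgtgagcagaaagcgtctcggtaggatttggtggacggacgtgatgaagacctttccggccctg
Psmf1: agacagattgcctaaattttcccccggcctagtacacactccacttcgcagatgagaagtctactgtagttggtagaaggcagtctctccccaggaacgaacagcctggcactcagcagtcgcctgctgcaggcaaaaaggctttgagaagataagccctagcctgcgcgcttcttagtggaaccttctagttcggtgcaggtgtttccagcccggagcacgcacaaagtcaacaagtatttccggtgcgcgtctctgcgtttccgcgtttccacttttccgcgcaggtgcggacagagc
Ddx56: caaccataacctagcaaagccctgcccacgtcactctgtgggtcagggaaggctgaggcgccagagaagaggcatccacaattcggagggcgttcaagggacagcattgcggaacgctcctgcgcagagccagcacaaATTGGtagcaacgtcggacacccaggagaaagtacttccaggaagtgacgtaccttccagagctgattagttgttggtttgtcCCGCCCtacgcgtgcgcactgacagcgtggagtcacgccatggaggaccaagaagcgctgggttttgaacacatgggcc
Myt1l: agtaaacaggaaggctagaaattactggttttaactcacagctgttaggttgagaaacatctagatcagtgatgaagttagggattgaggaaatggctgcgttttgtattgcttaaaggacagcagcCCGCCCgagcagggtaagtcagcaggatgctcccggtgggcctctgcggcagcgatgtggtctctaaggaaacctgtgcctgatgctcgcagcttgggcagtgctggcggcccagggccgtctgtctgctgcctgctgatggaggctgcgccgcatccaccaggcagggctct
Frmd4a: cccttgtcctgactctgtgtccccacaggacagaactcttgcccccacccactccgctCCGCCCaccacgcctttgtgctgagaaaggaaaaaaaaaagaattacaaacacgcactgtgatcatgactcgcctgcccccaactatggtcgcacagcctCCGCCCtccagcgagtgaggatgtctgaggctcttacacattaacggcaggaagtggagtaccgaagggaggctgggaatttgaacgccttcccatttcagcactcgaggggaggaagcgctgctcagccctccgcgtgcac
Pcdh15: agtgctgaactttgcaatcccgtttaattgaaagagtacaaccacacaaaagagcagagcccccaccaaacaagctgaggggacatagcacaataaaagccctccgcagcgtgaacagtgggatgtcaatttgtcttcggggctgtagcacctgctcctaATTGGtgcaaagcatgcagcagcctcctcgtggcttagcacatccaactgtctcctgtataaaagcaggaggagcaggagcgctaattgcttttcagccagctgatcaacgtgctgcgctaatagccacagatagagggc

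In these windows Psmc2 and Mrpl48 each had 1 ETS match, Ddx56 had 1 GC box and 1 CCAAT box, Myt1l had 1 GC box, Frmd4a had 2 GC boxes and Pcdh15 had 1 CCAAT box. The Mnat1 and Psmf1 windows had none of these matches. Only the last 68 bases of the Pcdh15 window lay in its region, so its CCAAT box lay outside the region. The other 7 windows shared at least 189 bases with theirs. CpG content was unequal: Psmc2 had 21 CpG dinucleotides in 300 bases, Psmf1 18, Ddx56 17, Frmd4a 15, Mnat1 12, Myt1l 11, Mrpl48 9 and Pcdh15 8. Mnat1, which encodes an assembly factor of the CDK-activating kinase, had a peak of 9.71-fold over background. The peaks were 7.88-fold at Psmc2, a proteasome ATPase gene, 7.76-fold at Mrpl48, a mitochondrial ribosomal protein gene, 7.23-fold at Psmf1, a proteasome inhibitor gene, and 6.84-fold at Ddx56, an RNA helicase gene. At Myt1l, a neural zinc finger factor, Frmd4a, which encodes a FERM domain protein, and Pcdh15, a protocadherin gene often used as an OPC marker, the peaks were 4.55-fold, 4.23-fold and 4.25-fold. The Myt1l site touched a peak of 1 input, and the other 7 touched none.

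Most of the regions were narrow and close to the detection limit of the list. Fold here is the authors' value for each peak, over the local background of their peak caller, and it was compared only within the Chd8 list. The median fold was 4.16 (quartiles 3.89 and 4.56, range 3.81 to 10.1), the median width 274 bp (quartiles 180 and 408.5, range 99 to 2175) and the median −log10 q 2.31. At the lowest fold of the list, 3.81, stood 804 regions (19.5%), beside 63 of 1792 gene-body peaks shared with Chd7 (3.52%). A fold of at least 5 was reached by 442 regions (10.7%), beside 705 shared gene-body peaks (39.3%). Shared gene-body peaks had a median fold of 4.67 and a median width of 458 bp with 1 Chd7 library, and 5.30 and 691 bp with both. Chd8-only peaks between genes, of which there were 2661, had a median fold of 4.16, the same as inside genes to the digits given. Absence from the Chd7 lists went together with low Chd8 fold. Whether Chd7 was absent, undetected or left out of the lists at such sites cannot be told apart.

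**Figure D1:**
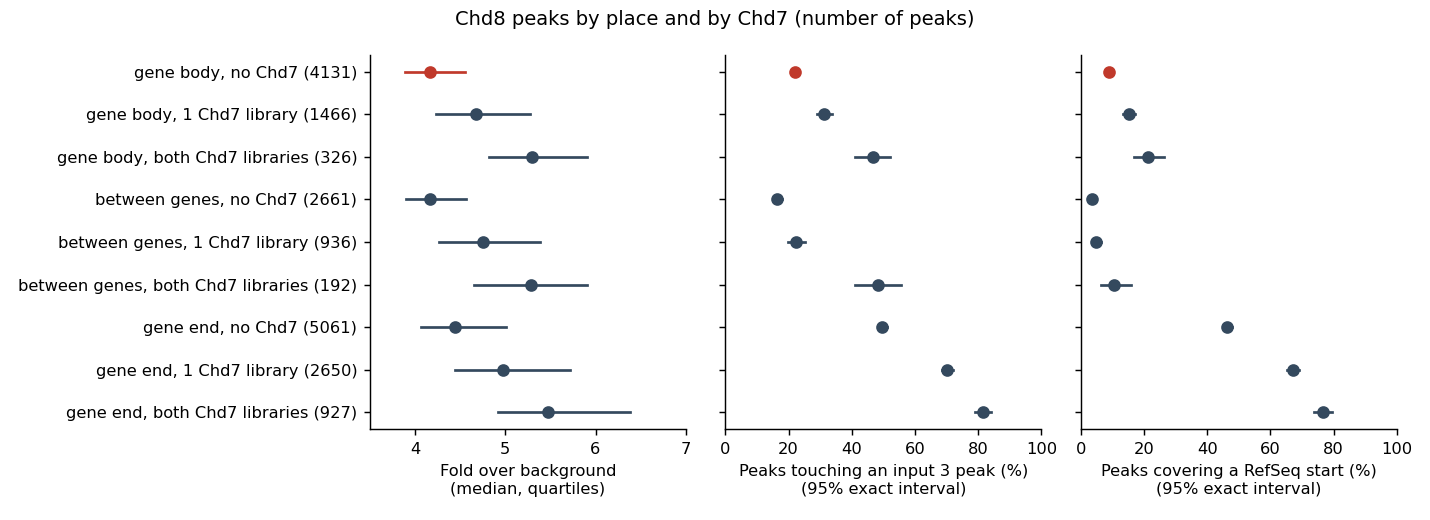
Chd8 peaks by place and by overlap with Chd7, with the number of peaks in parentheses: median and quartiles of the authors' fold (left), percent touching a peak of input 3 (middle) and percent covering a RefSeq start, chromosome 18 left out (right), with 95% exact intervals. Chd8-only peaks inside genes (red) had a median fold of 4.16, touched input 3 in 22.1% of cases and covered a start in 8.89%, each lower than in gene-body peaks shared with Chd7.

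A minority of the regions also had a peak in the matching input, which had no part in the rule. Input 3 peaks touched 915 of 4131 regions (22.1%, 20.9 to 23.4), input 2 peaks 252 (6.10%), input 1 peaks 227 (5.50%) and peaks of any input 1055 (25.5%). Peaks of input 3 covered 1.25% of the 988.5 Mb of gene body in which a region could lie, those of input 2 covered 2.09% and those of input 1 covered 1.08%. These are shares of bases and not rates of touching: a whole region is touched more easily than a single base is covered. The input 3 share was 16.4% for Chd8-only peaks between genes, 31.2% and 46.6% for gene-body peaks shared with 1 and both Chd7 libraries, and 49.7% for Chd8-only peaks at gene ends. Among peaks of 300 to 600 bp, where widths were alike, it was 24.5% (22.2 to 26.9) of 1376 regions, 29.0% (25.3 to 32.8) of 587 peaks shared with 1 Chd7 library and 39.6% (29.5 to 50.4) of 91 shared with both. From the lowest to the highest quartile group by fold it was 16.5%, 20.4%, 23.9% and 27.8%, and by width 16.3%, 19.2%, 20.6% and 32.5%. The 3076 regions without any input peak had a median fold of 4.13.

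A minority of the regions lay on an annotated start inside the host gene. RefSeq starts were at hand for all chromosomes but 18, which holds 151 regions. Of the other 3980, 354 covered a start (8.89%, 8.03 to 9.82), 524 lay within 1 kb of one without covering it and 3102 lay farther away. Gene-body peaks covered a start in 0.556% of cases for input 1, 0.378% for input 2 and 1.79% for input 3. Chd8-only peaks between genes did so in 3.66%, and gene-body peaks shared with 1 and both Chd7 libraries in 15.3% and 21.3%. Much of this last contrast went with width: among peaks of 300 to 600 bp the shares were 11.4% (9.76 to 13.3) of the regions, 11.95% (9.40 to 14.9) with 1 Chd7 library and 13.8% (7.34 to 22.9) with both, and these intervals overlap. Input 3 peaks of those widths covered a start in 2.28% (1.99 to 2.60).

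The covered start belonged to the host gene itself in 320 of the 354 cases, and to a long non-coding RNA (lncRNA) gene alone in 34. Own starts lay a median of 7.24 kb inside the outer start of the gene (1.05 to 1107 kb). Regions on a start were stronger and wider than the rest, with a median fold of 4.53 and a width of 448 bp, against 4.14 and 263 bp for those more than 1 kb from any start. They also touched input 3 more often, in 47.5% against 17.6%. From the lowest to the highest quartile group by fold, 2.62%, 6.84%, 8.95% and 17.1% covered a start. Seen from the annotation, 348 of 3881 coding-gene starts inside gene bodies (8.97%) lay under one of the regions, beside 54 of 2790 lncRNA starts (1.94%). Input 3 peaks covered 16.7% of these coding starts and 4.84% of the lncRNA starts.

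The starts under the regions were richer in CpG than the internal starts without Chd8. The windows of the 348 coding starts under a region had a median of 17 CpG dinucleotides in 300 bases and a median GC content of 57.3%. The values were 6 and 53.3% for 3127 internal coding starts under no Chd8 peak. A GC box GGGCGG was found in 52.3% against 34.4%, and in 46.2% of all 21263 coding windows. The ETS motif CCGGAAG was found in 19.2% against 3.93% (all windows 11.6%), and the NRF1 motif in 10.1% against 3.52% (all windows 8.57%). A further 243 internal coding starts lay under a Chd8 peak that touched a Chd7 peak. They had a median of 23 CpG dinucleotides, a GC box in 60.9%, the ETS motif in 16.9% and the NRF1 motif in 17.3%. These traits were thus shared with starts under Chd8 peaks that touch Chd7. Between starts under the regions and starts under no Chd8 peak, the order was the opposite for the TATA box TATAAA, with 5.46% against 12.2%, and for the SOX motif ACAATGG, with 1.44% against 3.93%. The E-box CAGCTG, a form bound by OLIG2 among other factors, was in 18.4% and 19.2%. Motifs were sought on both strands. The GC box, ETS and NRF1 motifs each hold a CpG, the window sets differ in CpG content, and its part in these shares was not tested. A match describes letters in the window, which can reach beyond the peak, and not binding.

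**Figure D2:**
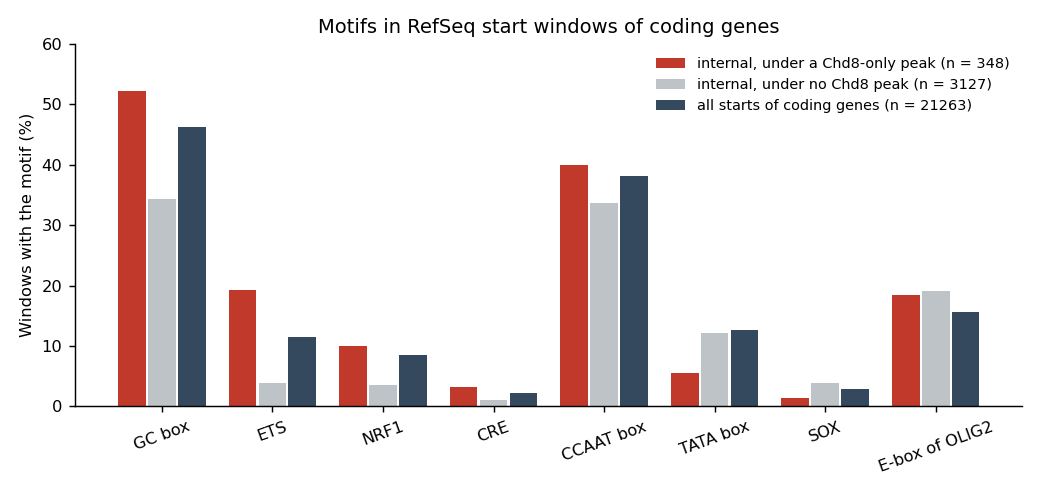
Percent of RefSeq start windows of coding genes that hold each of 8 motifs, for 348 internal starts under a Chd8-only peak, 3127 internal starts under no Chd8 peak and all 21263 starts of the table. The ETS bars stand at 19.2%, 3.93% and 11.6%, and the TATA box bars at 5.46%, 12.2% and 12.6%.

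Of the 12 regions of highest fold, most lay on such internal starts: 10 of 12 covered a RefSeq start, 5 touched input 3 and 4 touched no input. The strongest, 10.1-fold, lay in Cops7b, which encodes a subunit of the COP9 signalosome, at chr1:86586928-86587299. It covered no start, being 4.01 kb from the nearest, and it touched an input 3 peak. Below Mnat1, Tbc1d14, a regulator of autophagy, had 9.24-fold on an own start with peaks in all 3 inputs. Aars2, the mitochondrial alanyl-tRNA synthetase, had 8.997-fold, and Usp42, a deubiquitinase, 8.32-fold on the lncRNA D130017N08Rik. Diaph1, a formin that nucleates actin, had 8.13-fold with no input peak. It lies on chromosome 18, where starts were not at hand, so whether it covered one is unknown. Mmadhc, a gene of cobalamin metabolism, had 7.91-fold on the lncRNA Gm13483. Below Psmc2 and Mrpl48 came Zkscan2, a zinc finger gene, with 7.66-fold and Mrps2, another mitochondrial ribosomal protein gene, with 7.61-fold and peaks in all 3 inputs.

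None of the 5 widest regions was among those 12. Soga3 held a region of 2175 bp (4.88-fold), Pax6, a transcription factor of neural progenitors, one of 2115 bp (4.58-fold), and Alcam, a cell adhesion gene, one of 1843 bp (4.69-fold). Gpm6a, a neuronal membrane glycoprotein gene, held one of 1736 bp (5.22-fold) on an own start, and Gria2, an AMPA receptor subunit gene, one of 1713 bp (4.44-fold). The regions in Alcam and Gpm6a touched no input, whereas those in Soga3, Pax6 and Gria2 touched input 3.

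Within host genes the regions lay towards the start. Position could be read for 3280 regions with a single host gene of known strand. Of these, 61.4% (59.7 to 63.0) lay nearer the start than the end, 20.1% in the first decile of the gene's length and 5.79% in the last. Within 5 kb of the outer start were 25.5%, and within 5 kb of the end 8.11%, where the limit of 1 kb applied at both. After removal of all regions within 1 kb of any annotated start, 54.9% (52.9 to 56.9) of 2432 remained nearer the start, with 14.7% in the first decile and 7.52% in the last. Gene-body peaks shared with Chd7 lay nearer the start in 60.5% of cases. Gene-body peaks of inputs 1, 2 and 3 did so in 53.7%, 53.6% and 50.2%. The median distance from the nearest gene boundary was 14107 bp, and the farthest region was 786198 bp away.

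**Figure D3:**
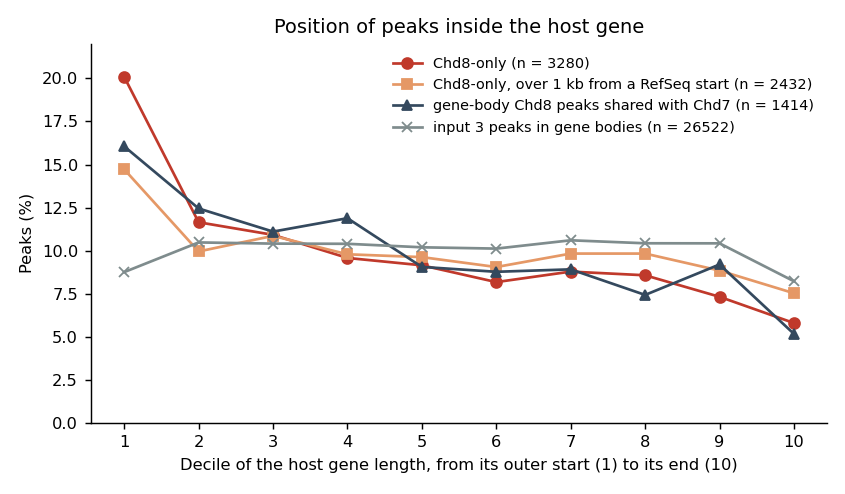
Percent of peaks in each decile of the host gene's length, from the outer start (1) to the end (10), for Chd8-only gene-body peaks, those over 1 kb from any RefSeq start, gene-body Chd8 peaks shared with Chd7, and gene-body peaks of input 3. The first decile held 20.1% of the Chd8-only peaks, 14.7% of those away from starts and 8.75% of the input 3 peaks.

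The limit of 1 kb cut through a continuous range. Just inside it stood regions in Gpm6a, Sptb and Foxn2, at 1003, 1004 and 1006 bp from a boundary, with folds of 4.20, 3.81 and 4.48. Just outside stood peaks in Ptprk, Ipo8 and Faah, at 999, 998 and 997 bp, with folds of 4.11, 9.16 and 4.46. With a limit of 5 kb in place of 1 kb, 2815 regions were left.

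The regions fell in 2745 host genes, 14.3% of the 19237 protein-coding genes long enough to hold one. A single region was found in 1900 of them, 845 held 2 or more and 88 held 5 or more. The share of hosts went up with gene length. Among genes under 20 kb 463 of 9199 held a region (5.03%), among those of 20 to 100 kb 1196 of 7609 (15.7%), and among those over 100 kb 1086 of 2429 (44.7%). Host genes were 70.0 kb long in the median, other genes 18.3 kb. Input 3 peaks lay inside 29.3%, 67.1% and 94.6% of the genes of the same bands. On the X chromosome there were 58 regions, 1.33 per Mb of gene body against 4.18 per Mb over all chromosomes, and on the Y chromosome there were none.

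Host genes carried Chd8 at their own ends about as often as other genes, but carried a shared Chd7 and Chd8 site inside more often. A Chd8 peak lay within 1 kb of an own boundary in 47.4% (45.5 to 49.3) of hosts and 44.7% (43.9 to 45.5) of other genes. Within the length bands the values were 48.2% and 42.3% under 20 kb, 47.2% and 48.1% from 20 to 100 kb, and 47.2% and 44.6% over 100 kb. A gene-body Chd8 peak that touched Chd7 was present in 26.4% of hosts and 4.31% of other genes, and in 41.6% and 15.0% of those over 100 kb. A Chd7 peak lay within 10 kb of 26.0% of the regions and within 1 kb of 8.23%. Another of the regions lay within 10 kb of 23.9%.

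OPC identity genes had the highest share of hosts of the lists examined, with an interval that overlaps those of several others. Such genes mark or maintain the precursor state, among them receptors, SOX factors and proteoglycans. Of 27 measured genes 20 held a region (74.1%, 53.7 to 88.9), where the whole gene set, weighted to the list's length bands, gave 18.4%. Short genes contributed: 9 of 15 under 20 kb were hosts, against 5.03% of all genes that short, with 4 of 4 from 20 to 100 kb and 7 of 8 above. Input 3 peaks lay inside 21 of the 27. The list also stood high in other Chd8 peaks, so this was not particular to the Chd8-only regions. A gene-body Chd8 peak that touched Chd7 was present in 13 of the 27, beside 26.4% of all hosts and 4.31% of other genes. A Chd8 peak lay within 1 kb of an own boundary in 22 of the 27, beside 47.4% and 44.7%. Of the 57 regions in the list, 13 touched input 3, and 18 of the genes held a region free of every input. Their median fold was 4.06, near that of all regions, and 4 covered a start. Of the 20 host genes, 10 were left with a limit of 5 kb from gene boundaries, 3 with a fold of at least 5 and 2 with a −log10 q of at least 5.

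**Figure D4:**
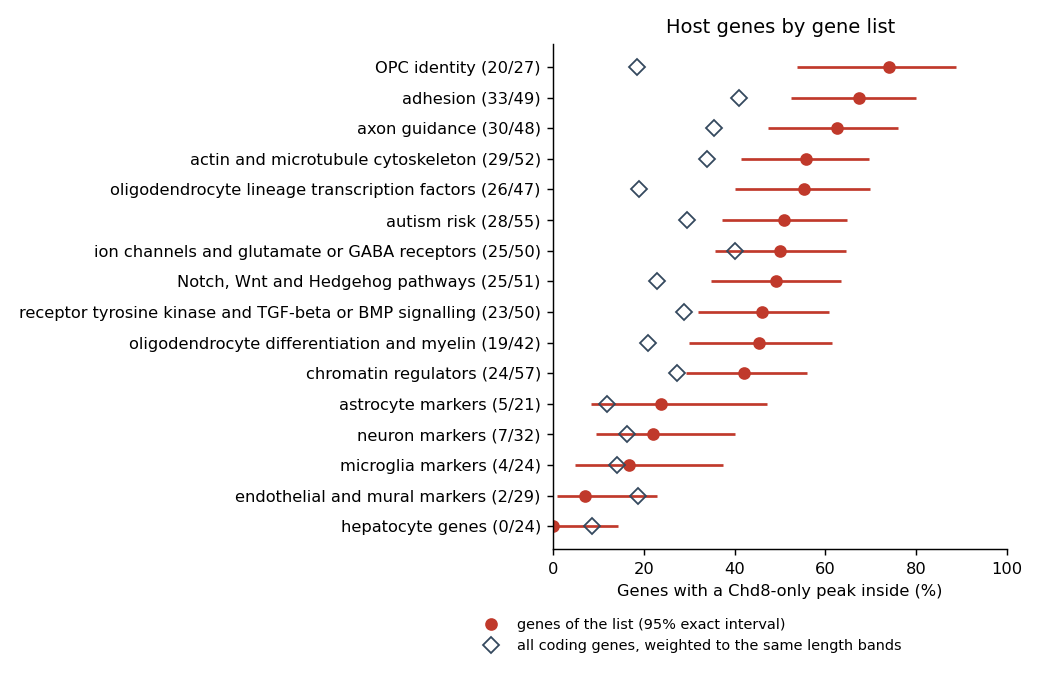
Percent of the genes of each list with a Chd8-only peak inside (red, 95% exact interval, counts in parentheses) and the percent over all coding genes weighted to the same length bands (open diamonds). OPC identity stands at 74.1% beside 18.4%, hepatocyte genes at 0% beside 8.47%.

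Several of these hosts had their regions spread over the gene and others close together. Distances from a gene's start are taken here and below from its outer boundary, which need not be the nearest annotated start. Tnr, which encodes the matrix glycoprotein tenascin-R, held 5 regions of 4.06-fold, 4.03-fold, 4.13-fold, 7.31-fold and 4.84-fold at 2.77, 14.6, 106, 173 and 240 kb from its start, and none touched an input. The fold of 7.31 is the highest of the 57. Nkx2-2, a homeodomain factor of OPC differentiation, held 6 within 18.95 kb. They lay at 1.58, 9.61, 11.2, 12.3, 13.3 and 16.8 kb from its outer start, with folds of 4.91, 4.82, 4.58, 4.01, 3.81 and 4.01. The region at 11.2 kb covered the start of Nkx2-2os, and those at 9.61 and 12.3 kb lay 481 and 662 bp from an annotated start. The region at 1.58 kb was 5970 bp from the nearest annotated start. Only 3 of the 6 lay more than 1 kb from any such start, and 3 touched input 3. Pdgfra, the receptor of the main OPC mitogen, held a single region of 1124 bp and 4.96-fold, 5.42 kb from its start, with a peak in inputs 2 and 3. Xylt1, which starts glycosaminoglycan chains on proteoglycans, held 5 of 3.81-fold to 4.50-fold, all free of inputs, and Cacng4, an AMPA receptor auxiliary subunit, held 5 of 3.81-fold to 4.15-fold.

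The SOX family was represented in its SOXC, SOXD and SOXE groups. Among the SOXD genes, known for holding OPCs in the precursor state, Sox5 held 9 regions in 953.9 kb and Sox6 held 6 in 569.9 kb. In Sox6 they lay at 6.62, 8.75, 9.88, 10.5, 310 and 355 kb from its start, so 4 of 6 lay within 10.5 kb of it, and 2 of those 4 covered an annotated start. The highest of them, 5.06-fold, touched inputs 2 and 3. Of the SOXC genes, Sox4 held 2 in 4.78 kb (6.17-fold and 3.81-fold, both with an input 3 peak) and Sox11 2 in 8.45 kb (4.08-fold and 4.54-fold). The SOXE genes Sox8 and Sox9 held 1 each, of 4.90-fold and 3.81-fold, and Sox10 held none.

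Of all genes, Nfia held the most regions. It encodes a nuclear factor I protein with a known part in the start of gliogenesis, and it held 16 regions in 540.8 kb (chr4:97578066-98118876), or 2.96 per 100 kb. Their folds ran from 3.81 to 5.96. The highest, 5.96-fold and 105 bp wide, lay 3.07 kb from the outer start, with another of 5.36-fold 3.79 kb from it. These regions lay 758 and 37 bp from an annotated start inside the gene. Of the 16, 14 lay more than 1 kb from any annotated start. Only 2 of the 16 touched input 3, and 1 touched input 1. The gene also held 3 Chd8 peaks that touched Chd7. Nfix, another member of the family, held 9 in 96.53 kb, or 9.32 per 100 kb, all between 3.81-fold and 4.24-fold, and 3 shared peaks. Nfib held 5 with a highest fold of 6.72 and no shared peak, and Nfic held 1 of 4.35-fold. All 4 genes of the family were thus hosts, Nfic only through a region that touched inputs 1 and 3. Nfia and Nfib are over 100 kb long, where 44.7% of all genes were hosts. Nfic and Nfix are 20 to 100 kb long, where 15.7% were.

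**Figure D5:**
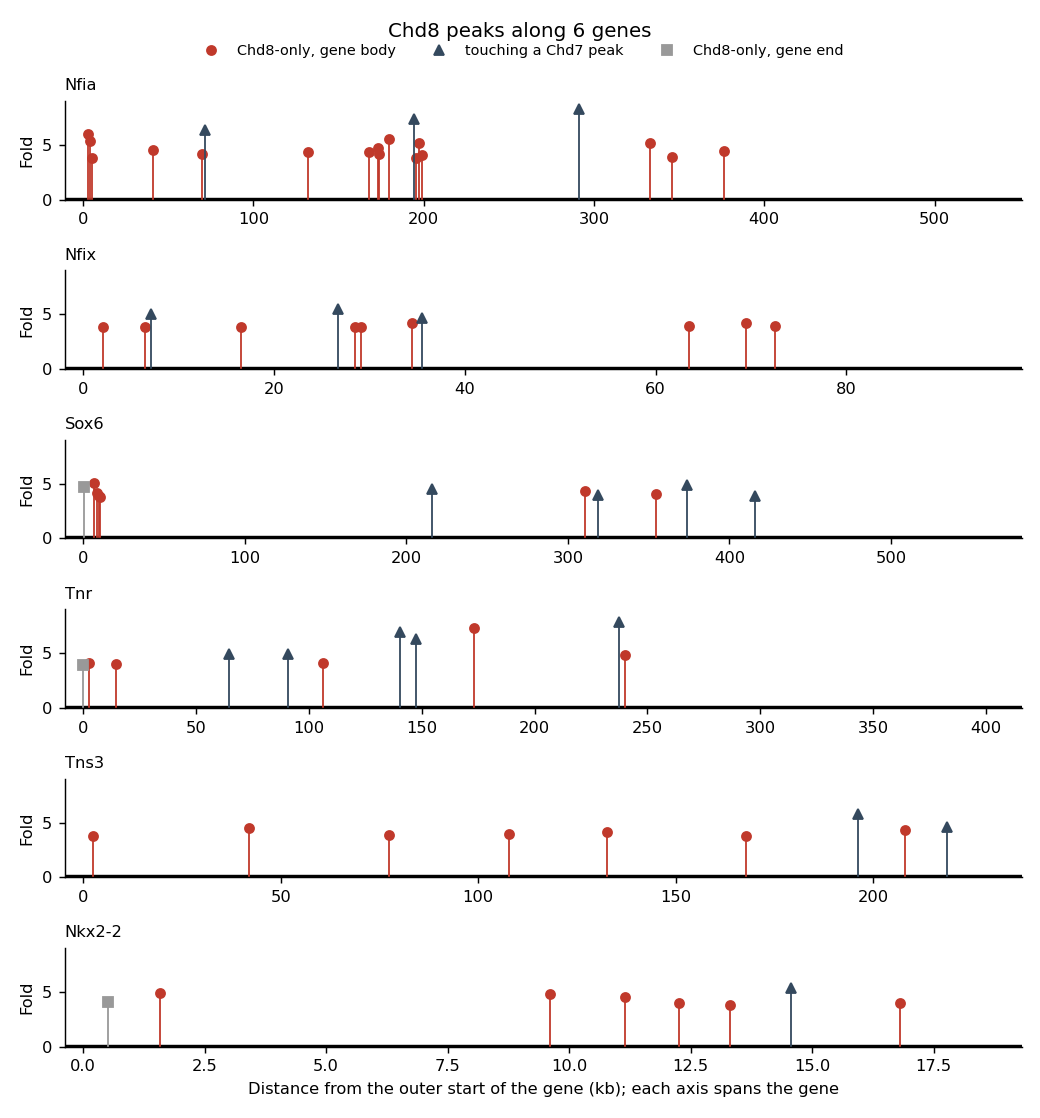
Chd8 peaks inside 6 genes by distance from the outer start of the gene (kb, each axis spanning the gene) and by fold: Chd8-only peaks away from gene boundaries (circles), peaks touching a Chd7 peak (triangles) and Chd8-only peaks within 1 kb of a gene boundary (squares). Nfia held 16 circles and 3 triangles, Nfix 9 and 3, Sox6 6 and 4, and Nkx2-2 6 and 1.

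The next genes by number were long. Csmd1, a large transmembrane complement-domain gene, held 11 regions in 1643 kb, Npas3, a bHLH-PAS factor, 10 in 824 kb, and Nav2, a neuron navigator gene, 10 in 651 kb. Tcf4, an E protein that pairs with lineage bHLH factors, held 9 in 344.5 kb. Sox5 and Nfix followed with 9 each, as given above, and 6 genes held 8. Of these 6, the overlapping gene models Gm37013, Gm38666 and Gm38667, which hold the same 8 regions, had the highest summed fold. By regions per length among hosts of 3 or more, Spry2, an inhibitor of receptor tyrosine kinase signalling chosen here after its values were seen, came first with 3 in 4.87 kb.

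Oligodendrocyte differentiation and myelin genes were hosts in 19 of 42 cases (45.2%, 29.8 to 61.3), where their length bands gave 20.9%. The hosts were mainly long: 12 of 13 genes over 100 kb held a region, 5 of 14 of 20 to 100 kb and 2 of 15 under 20 kb. Only 4 of their 49 regions touched input 3, and 18 of the 19 genes held a region free of every input. Fa2h, the fatty acid 2-hydroxylase of myelin lipids, had the highest fold, 7.56, in a region of 151 bp that touched input 3. Tcf7l2, a Wnt effector of differentiating oligodendrocytes, held 2 regions of 4.61-fold and 5.27-fold, the second 96.4 kb inside the gene. Itpr2, a calcium release channel used as a marker of committed cells, held 4, of which 3 lay within 43.6 to 63.5 kb of the start with folds of 5.00, 5.00 and 5.21. Bcas1, a marker of newly formed oligodendrocytes, held 1 of 5.06-fold.

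Other hosts of that list fall outside the naming rule and were chosen after their values were seen. Mbp, which encodes myelin basic protein, held 4 regions of 3.81-fold, 4.51-fold, 4.95-fold and 3.98-fold, none with an input peak. Tns3, a focal adhesion gene expressed in differentiating OPCs, held 7 spread over 2.43 to 208 kb from its start, of 3.81-fold to 4.51-fold. Fyn, a kinase that acts in myelination, held 5 of 3.81-fold to 4.52-fold, and Pllp, the myelin protein plasmolipin, held 3 of 4.52-fold to 4.70-fold in 21.4 kb with no input peak.

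Transcription factors of the lineage were hosts in 26 of 47 cases (55.3%, 40.1 to 69.8; length bands 19.0%), with 95 regions, 18 of them touching input 3. Beyond the SOX and NFI genes, Myt1l held 3 with a highest fold of 5.29 and Nr2f1, a nuclear receptor, 1 of 5.27-fold.

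Signalling, adhesion and cytoskeletal lists stood above their length bands by smaller ratios than OPC identity. The median gene length of these lists ran from 46.4 kb (Notch, Wnt and Hedgehog pathways) to 457 kb (adhesion). The band over 100 kb has no upper limit, and 43 of 49 adhesion and 34 of 48 axon guidance genes fall in it. Over all genes of that band the median length was 202.9 kb for hosts and 155.7 kb for others. Length inside the band was not matched, and its part in these excesses was not tested. Adhesion genes were hosts in 33 of 49 cases (67.3%, 52.5 to 80.1, beside 40.9%), led by Lsamp (6.98-fold), a GPI-anchored adhesion gene, and Csmd1 (6.31-fold). Axon guidance genes were hosts in 30 of 48 (62.5%, 47.4 to 76.0, beside 35.4%), led by the semaphorins Sema5b (6.18-fold) and Sema3a (6.14-fold), and 22 of their 71 regions touched input 3. Actin and microtubule genes gave 29 of 52 (55.8%, 41.3 to 69.5, beside 33.9%), with Utrn (5.80-fold), which encodes the dystrophin relative utrophin, and Ank2 (5.78-fold), which encodes an ankyrin. Notch, Wnt and Hedgehog pathway genes gave 25 of 51 (49.0%, 34.8 to 63.4, beside 22.9%), with Rnf43 (5.87-fold), a ubiquitin ligase that removes Wnt receptors, and Maml2 (5.58-fold), a Notch coactivator. Genes of receptor tyrosine kinase and TGF-beta or BMP signalling gave 23 of 50 (46.0%, 31.8 to 60.7, beside 28.8%), with the receptors Igf1r (5.54-fold) and Erbb4 (5.32-fold).

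The interval of the next list took in the value of its length bands. Ion channel and glutamate or GABA receptor genes were hosts in 25 of 50 cases (50%, 35.5 to 64.5, beside 40.1%), with the potassium channel Kcnd3 (5.50-fold) and the receptor Gabbr2 (5.35-fold).

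Chromatin regulators and autism risk genes, classes to which Chd8 itself belongs, were hosts in 24 of 57 cases (42.1%, 29.1 to 55.9, beside 27.2%) and 28 of 55 cases (50.9%, 37.1 to 64.6, beside 29.6%). The Chd8 gene held the region of highest fold among chromatin regulators, 5.94-fold and 113 bp wide at chr14:52244458-52244570, 13.2 kb from the nearest annotated start and free of input peaks. Chd2, another CHD remodeler gene, held 1 of 5.77-fold. Chd7, chosen after its values were seen, held 2 with a highest fold of 4.41. Among autism risk genes Pogz, a heterochromatin-associated zinc finger gene, had 7.43-fold and Adnp, a homeodomain factor gene, 6.75-fold, both without an input peak.

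Marker genes of other cell types had lower shares of hosts, and their intervals took in the values of their length bands. Neuron markers gave 7 of 32 (21.9%, 9.28 to 40.0, beside 16.1%), with the RNA-binding gene Elavl4 (5.05-fold) among them, and none of their 12 regions touched an input. Astrocyte markers gave 5 of 21 (23.8%, 8.22 to 47.2, beside 11.9%), with the bicarbonate transporter Slc4a4 (6.18-fold) and S100b (4.86-fold), which oligodendrocytes also express. Microglia markers gave 4 of 24 (16.7%, 4.74 to 37.4, beside 14%), where the highest, in the Fc receptor gene Fcgr3 (4.91-fold), touched all 3 inputs, and Ptprc, the CD45 gene, had 4.32-fold. Endothelial and mural markers gave 2 of 29 (6.90%, 0.846 to 22.8, beside 18.7%), Ptprb (3.95-fold) and Cspg4 (4.06-fold), which is also on the OPC identity list. Hepatocyte genes gave 0 of 24, for which the exact interval reaches 14.2%, beside 8.47%. Occupancy of a marker gene does not measure how many cells of a type were present, and the makeup of the sorted cells was not tested.

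Boundaries of non-coding genes were within 1 kb of 297 regions (7.19%, 6.42 to 8.02), among them 253 at lncRNA, 18 at pseudogene, 13 at miRNA and 6 at tRNA genes. The 5 of highest fold all lay at lncRNAs. Besides D130017N08Rik and Gm13483 they included Gm38597 in Afap1l2, an actin-associated adaptor gene (6.37-fold), and Gm19605 in Ppp2r5c, a phosphatase subunit gene (6.28-fold), both with an input 3 peak. Where a lncRNA and its host overlap, a peak cannot be assigned to either gene.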

How the data were processed

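ChIP-seq peaks of O4-positive mouse cells were used as deposited, 1 broad peak list per library in mm10. Bowtie2, SAMtools, Picard and MACS are named, per the submitters' processing notes; their versions, settings and calling controls were not given in the sources used here. Per the file headers these are broad peak tracks, holding for each peak a score, 10 times the −log10 q, that the authors deposited. They also hold the fold (a ratio to local background, from the authors' caller) and −log10 p and −log10 q values that the authors deposited. No value was renormalised.

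Libraries were grouped by title. Touching meant an overlap of at least 1 bp. Genes came from a RefSeq table of GRCm38.p6 (21887 protein-coding genes, boundaries only), and strand and starts from 32851 RefSeq start windows, which cover 79.9% of those genes and not chromosome 18. Regions on that chromosome therefore count as having no known start in the alternatives. Python 3.11.15, pandas 2.3.3, numpy 2.4.6 and scipy 1.17.1 were used, and the interval code was tested on simulated intervals. Length-band values are the shares over all genes, weighted by the list's genes in each band. Length within a band was not matched. Of 673 distinct list genes, 670 matched by symbol and 664 were long enough.

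Members, lists and the naming rule were chosen with earlier results of these data known. Named were the 12 regions of highest fold, the 8 genes with most regions, the 12 OPC identity, differentiation or lineage factor genes with the highest fold, the top 2 of each other list, the 5 widest regions, the 5 highest at non-coding boundaries, and 3 on each side of the limit. Sequences were to be printed for the highest regions without input and for those the text turns on. Some genes and 1 list that the rule covers are not reported here. Reads were not used here.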

Additional observations from a re-analysis of the deposited data

How the results depend on the processing

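The number of regions, 4131, fell to 98 with a −log10 q of at least 5 and to 442 with a fold of at least 5, and otherwise lay between 2815 (5 kb from boundaries) and 5169. Without each Chd7 or mock library in turn it ranged from 4131 to 5169. The share touching input 3, 22.1%, became 16.9% at 5 kb, 35.7% and 31.0% at those minimum values of −log10 q and fold, 15.4% where an overlap had to cover 50% of the Chd8 peak, 17.8% without regions within 1 kb of an internal start (chosen after seeing the data) and 6.10% with input 2 in its place; it ranged from 21.2% to 26.1% without each library. The share of genes with a region, 14.3%, became 9.37% at 5 kb, 11.4% and 10.96% without regions touching input 3 or any input, 0.504% and 2.28% at the minimum values, 16.0% with the 50% overlap, 13.3% without Chd7 within 1 kb, 13.4% away from non-coding boundaries too and 11.3% without regions near internal starts; it ranged from 14.3% to 16.3% without each library. Where fewer peaks enter, fewer genes can be hosts. The share on a start, 8.89%, ranged from 5.30% to 38.3%, with the alternatives chosen after seeing the data. The causes were not tested beyond this. No paired analysis was possible because there was 1 Chd8 library and no result came from a test. Unknown depth and the peak numbers missing from the lists limit what absence from a Chd7 or mock list shows.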
